A study of Mus musculus with 36 samples.

Results

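The DNA replication and S phase genes described here are 46 genes that license, unwind, copy and repackage chromosomal DNA, taken by their symbols from a deposited table of normalized read counts that lists 24127 genes. All 46 symbols were found, and all 46 were among the 11853 genes tested, those whose normalized count averaged 10 or more. The cells were dendritic cells of the mouse, cultured from bone marrow in GM-CSF and then selected for the integrin CD11c. They came from wild-type mice (WT, C57BL/6J) or from mice lacking LGP2 (here KO, labelled LGP2-/- or Dhx58-/-), an RNA-binding relative of the viral RNA sensor RIG-I. Transfection was with 20 ng of PAMP RNA, a poly-U/UC RNA of hepatitis C virus that RIG-I binds, other cells stayed as mock controls, and RNA was taken after 1, 3 or 6 h. The 12 groups were therefore WT mock, WT PAMP RNA, KO mock and KO PAMP RNA at each of the 3 times, with 3 libraries in each and 36 in all. The labels call the controls both mock and untreated, so a response (PAMP RNA minus mock of the same genotype and time) includes whatever transfection itself contributed, and the sources used here do not say whether GM-CSF was present after plating.

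Cells copy their DNA in S phase. Before it, ORC, CDC6 and CDT1 load the ring-shaped MCM helicase on origins, and CDC45, GINS and MCM10 then help turn it into a running helicase. At the fork, RPA coats single strands, primase and polymerase alpha start chains, polymerases delta and epsilon extend them on the sliding clamp PCNA that the RFC complex loads, and FEN1 and LIG1 join the lagging-strand pieces. Ribonucleotide reductase, thymidylate synthase and related enzymes supply the nucleotides, and the E2F factors and cyclin E drive entry into S phase and the transcription of many of these genes. GM-CSF cultures of bone marrow hold dividing precursors that stop dividing as they differentiate.

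Depth ran from 4740909 to 14255730 reads per library, and all values are on the authors' normalized scale. Dhx58, the targeted gene, had normalized counts of 83.6 to 103 in WT mock and 108 to 214 in KO mock libraries at 1 h, and of 2941 to 3066 in WT and 807 to 1012 in KO libraries given PAMP RNA at 6 h. KO mock libraries were above WT mock libraries at every time, which goes against the label. At 1 h after PAMP RNA, KO libraries (137 to 178) were above WT libraries (91.9 to 105) too. The lower KO level after PAMP RNA at 3 h and 6 h goes with the label. Gene-level counts carry no exon positions, and these libraries do not mark strand, so WT and KO stand here for libraries labelled so. Of 13 dendritic cell markers, 10 passed the count minimum (Flt3, Cd209a and Siglech did not), while no lymphocyte marker and no erythroid, mast cell or fibroblast marker did, and Cd3g and Hbb-bs were at 0 in every library. Of 9 markers of myeloid and stem progenitors, 5 passed, and Mpo, Elane, Ctsg and Ms4a3 did not. The list summed to 639 to 775 in WT mock libraries at 1 h and 471 to 505 at 6 h, mostly from Kit, Cd34 and Sox4. Neutrophil markers summed to 3816 to 5292 over all groups, nearly all of it Mmp8. In bulk samples, fewer cells of a type and less RNA per cell cannot be told apart, so a lower count can mean fewer cells in S phase or less RNA in each.

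In mock cells the replication genes fell together over the 6 h. Differences are on the log2(normalized count + 1) scale, which understates the change of low genes, and calls needed an adjusted p below 0.05 (limma, Benjamini-Hochberg over 11853 genes). Between mock cells at 1 h and at 6 h, both genotypes averaged, 45 of 46 members fell and 0 rose, where 36.8% of all tested genes fell and 35% rose. The members' median difference was -1.04 and the median of all tested genes -0.01. From 3 h to 6 h, 40 members fell and 0 rose, against 28.4% and 28.9% of all genes, with a median of -0.62. No member was higher at an unadjusted p under 0.05 in either interval, or called higher by edgeR or DESeq2. All 45 and all 40 calls were kept under every other scaling, filter and tool in which the gene was tested, equal library totals and leaving out any library included. Gins1, Rfc4, Orc1, Cdc45, Prim1 and Pole2 average under 50 counts and were not tested under the stricter filter. When each genotype was tested alone, a choice made after seeing the data, 2 of the 45 were lost in WT, Mcm10 (-0.21, adjusted p = 0.0892) and Rfc1 (-0.14, adjusted p = 0.0716). With all such refits counted, 4 values were weaker and 88 the same in WT cells alone. In KO cells alone 3 were weaker, 2 stronger and 87 the same. Of 5 tested progenitor markers 4 fell from 1 h to 6 h, while Mpo, Elane, Ctsg and Ms4a3 were too low to test. In WT mock libraries the progenitor list summed to 639 to 775 at 1 h, 470 to 547 at 3 h and 471 to 505 at 6 h. In KO mock libraries it summed to 444 to 469, 389 to 449 and 350 to 373. Macrophage and monocyte markers moved as well, 6 of 9 rising and 3 falling, and summed to 16790 to 17150 in WT mock libraries at 1 h and 24780 to 25300.0 at 6 h, with 17390 to 18370 and 26090 to 26800 in KO cells. The part of these cells in the result was not tested. Cells for the 3 times were plated and collected separately, so time in culture and any difference between collections cannot be told apart.

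Ung, Cdc6, Cdt1 and Mcm2 fell most from 1 h to 6 h. Ung, the uracil-DNA glycosylase that removes uracil from DNA, had 126, 125 and 125 normalized counts in WT mock cells at 1 h and 10.9, 13.1 and 23.3 at 6 h, with 143, 117 and 139 and 16.1, 23.3 and 18.5 in KO cells. Every 1 h library lay far above every 6 h library, and the difference over both genotypes was -2.86 (SE 0.18, adjusted p = 4.79e-19). Cdc6, the ATPase that brings CDT1 and the helicase to origins, differed by -2.19 (SE 0.11, adjusted p = 3.18e-23). Cdt1, its partner in loading, had 361 ± 46.6 normalized counts (SD, n = 3) at 1 h, 127 ± 13.7 at 3 h and 86.4 ± 7.28 at 6 h in WT mock cells, a difference of -2.08 from 1 h to 6 h. Most of that fall was complete by 3 h. Mcm2, a helicase subunit, went from 548, 548 and 510.3 to 152, 132 and 158 in WT mock cells, and -1.93 (SE 0.07, adjusted p = 4.70e-28) over both genotypes. Ccne1, Uhrf1, Mcm6 and Rrm2 followed, at -1.89, -1.76, -1.73 and -1.68.

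The shallowest falls were those of Rfc1, the large clamp loader subunit (-0.22, SE 0.05, adjusted p = 0.000106), of Gins4 (-0.29) and of E2f1 (-0.30, SE 0.07, adjusted p = 0.000234). E2f1 encodes an activating E2F factor, and its mock libraries at 1 h and 6 h met in WT cells (267 to 324 against 216 to 267). The member that was not called was Pole2, the second subunit of polymerase epsilon and the member with the lowest counts (-0.65, SE 0.38, adjusted p = 0.116). It passed with edgeR on recovered reads (-0.66, adjusted p = 0.0289) and with DESeq2 (-0.65, adjusted p = 0.0376). Among roles with more than 1 gene, the median fall was steepest in origin licensing (-2.08, 3 genes), chromatin behind the fork (-1.59, 3 genes) and the helicase (-1.49, 6 genes). It was least steep in the clamp and its loader (-0.66, 6 genes) and the polymerases and primase (-0.65, 7 genes).

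**Figure D1:**
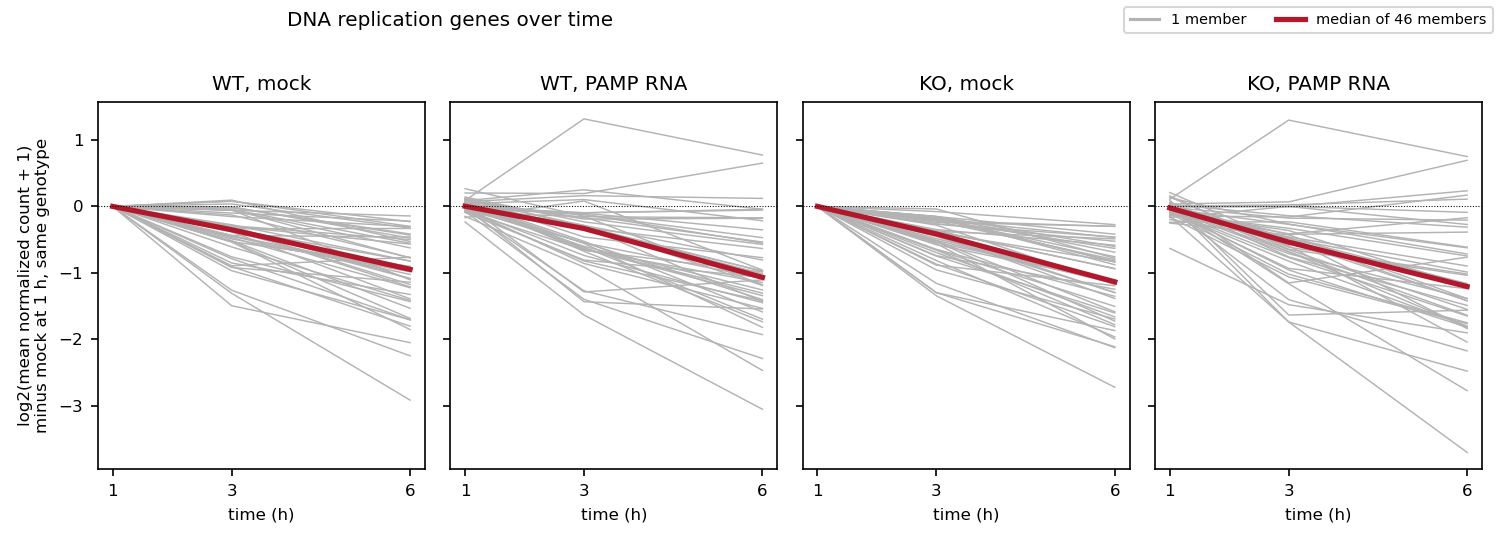
Change of each of the 46 members over time. The x axis is time in h, the y axis is the log2 of the group's mean normalized count + 1 minus that of mock cells of the same genotype at 1 h, grey lines are members and the red line is their median. In both mock panels nearly every line falls from 1 h to 6 h, and with PAMP RNA Mcm10 lies highest at 3 h and at 6 h in both genotypes.

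Summed over the 46 members, WT mock libraries held 15370 ± 363 normalized counts (SD, n = 3) at 1 h, 12190 ± 42.6 at 3 h and 8080 ± 204 at 6 h. KO mock libraries held 17090 ± 299, 12920 ± 353 and 8221 ± 62.3. The 1 h and 6 h libraries did not overlap in either genotype. Levels per kilobase were divided by the length of all annotated exons of a gene merged, so ranks depend on the annotation too. By this measure Pcna ranked first in WT mock cells at 1 h, at 869 ± 65.2 normalized counts. Fen1 followed at 349 ± 12.4, Rrm2 at 204 ± 26.9 and Mcm3 at 196 ± 6.54. Pcna and Fen1 differed by far more than their spread, while Rrm2 and Mcm3 did not differ beyond theirs. Pole2 was the lowest, at 5.31 ± 1.20, below Pole at 12.0 ± 1.28 and Prim1 at 12.4 ± 1.88, which lay within each other's spread.

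PAMP RNA left the members as a set near the middle of all genes and split them into risers and fallers. At 1 h no member was called in either genotype, where 0.143% of all genes fell and 0.801% rose in WT cells, and 0.169% fell and 1.19% rose in KO cells. At an unadjusted p under 0.05 limma had 0 members in WT and 1 lower in KO cells, and edgeR and DESeq2 called none. At 3 h, 7 members fell and 3 rose in WT cells, against 22% and 19.6% of all genes. In KO cells 12 fell and 3 rose, against 26.9% and 23.8%. The 7 that fell in WT cells (Mcm3, Pold1, Rpa1, Chaf1a, Uhrf1, E2f1 and E2f2) all fell in KO cells too, and the same 3 rose in both (Mcm10, Rfc3 and Tyms), where 18.6% of all genes fell and 18% rose in both. At 6 h, 14 members fell and 14 rose in WT cells, against 33.3% and 32.1% of all genes, and in KO cells 18 fell and 14 rose, against 36.5% and 35.1%. The shares called were close to those of all genes at 6 h and below them in both directions in WT cells at 3 h. The median of the members was -0.05 in WT and -0.09 in KO cells at 6 h, beside -0.02 and -0.03 for all genes.

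At 6 h, 13 members rose in both genotypes, 11 fell in both, 4 were called in WT cells only, 8 in KO cells only, 10 in neither and 0 in opposite directions. Of all genes, 29.5% rose in both, 29.6% fell in both, 6.21% were called in WT cells only, 12.5% in KO cells only, 22.1% in neither and 0.0928% in opposite directions. Libraries of the treated and mock groups did not overlap for 28 of 46 members in WT and 30 of 46 in KO cells, against 67.1% and 73% of all genes. The sign of the smaller rises depends on the scale. The total of normalized counts was higher after PAMP RNA, so each gene's share of it is lower at an unchanged count. When every library was scaled to an equal total, the median of all tested genes itself moved to -0.39 in WT and -0.51 in KO cells at 6 h, and to -0.20 and -0.28 at 3 h. On that scale 29 members fell and 6 rose in WT cells at 6 h, 32 fell and 7 rose in KO cells, and at 3 h 22 fell and 2 rose in WT cells and 28 fell and 2 rose in KO cells. Of all genes, 62.4% fell and 16.4% rose in WT and 66.5% and 16.9% in KO cells at 6 h on that scale, and 45.3% and 13.6% in WT and 56.8% and 14.9% in KO cells at 3 h. Relative to the median gene, all 14 members that fell and all 14 that rose in WT cells at 6 h stayed on their side, as did all 18 and 14 in KO cells. Equal totals move all genes of a comparison by nearly the same amount, so this outcome was all but fixed and adds no support. The responses at 6 h and the mock time course share the mock libraries of 6 h, so their values are given side by side and not as support for each other. The members' sum moved from 8080 ± 204 to 8849 ± 83.5 normalized counts in WT cells at 6 h, but from 0.109% to 0.092% of the library's total. It moved from 8221 ± 62.3 to 9687 ± 205 in KO cells, or from 0.111% to 0.0934%.

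Rises of 6 members in WT cells (Cdt1, Gins2, Mcm10, Pcna, Rfc3 and Rfc5) and 7 in KO cells (Cdt1, Gins1, Gins2, Mcm10, Pcna, Rfc3 and Ccne1) were called at 6 h under every other scaling, filter and tool, equal totals included, and without any single library, except that Gins1 was not tested under the stricter filter. So were falls of 11 members in WT cells and 14 in KO cells. Progenitor markers summed to 263 to 315 in WT libraries given PAMP RNA at 6 h, against 471 to 505 in mock, and to 220 to 225 against 350 to 373 in KO cells. Of 4 tested neutrophil markers, Mmp8 fell in both genotypes (-0.19 and -0.25), and S100a8 (0.51) and S100a9 (1.13) rose in KO cells. Of 9 macrophage and monocyte markers 4 fell and 4 rose in each genotype, and of 10 dendritic cell markers 1 fell and 6 rose. The part of these cells in the members' responses was not tested.

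**Figure D2:**
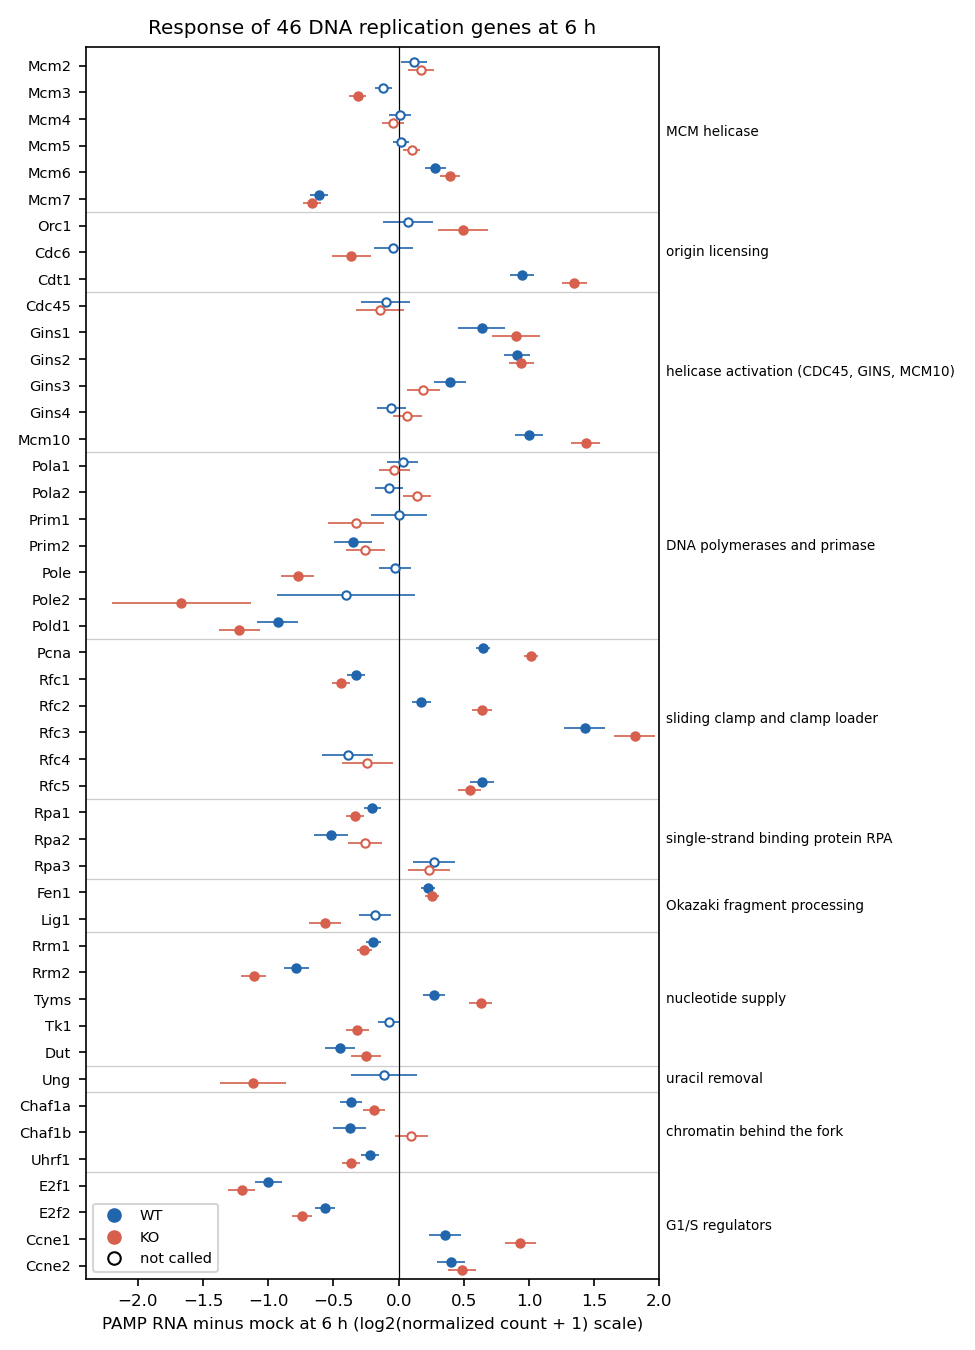
Response of each member at 6 h, in WT (blue) and KO cells (red), grouped by role. The x axis is PAMP RNA minus mock on the log2(normalized count + 1) scale, bars are the standard error from limma, and open points were not called. Rfc3, Mcm10, Cdt1, Pcna and Gins2 lie farthest to the right and E2f1, Pold1 and Rrm2 to the left in both genotypes, and among the called rises those of Mcm6 and Fen1 in both genotypes and of Rfc2, Tyms and Ccne1 in WT cells turn negative when libraries are scaled to equal totals.

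Promoters of 4 members are shown because these genes share an E2F word near their start sites and moved in opposite directions at 6 h. Each is the RefSeq promoter on GRCm38.p6, from 250 bases before to 50 bases after an annotated start, read 5′ to 3′ on the gene's strand. Capitals mark the E2F words, which were searched on both strands as TTTCCCGC, TTTGGCGC, TTTGCCGC and TTTCGCGC. Rfc3 (chr5:151651159-151651458 on the minus strand) and Cdt1 (chr8:122567765-122568064 on the plus strand) rose.
Rfc3: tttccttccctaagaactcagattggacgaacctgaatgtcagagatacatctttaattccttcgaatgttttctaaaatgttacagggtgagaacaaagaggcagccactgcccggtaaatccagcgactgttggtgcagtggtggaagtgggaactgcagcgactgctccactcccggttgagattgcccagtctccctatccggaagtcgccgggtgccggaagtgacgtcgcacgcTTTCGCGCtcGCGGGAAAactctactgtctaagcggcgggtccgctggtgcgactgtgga
Cdt1: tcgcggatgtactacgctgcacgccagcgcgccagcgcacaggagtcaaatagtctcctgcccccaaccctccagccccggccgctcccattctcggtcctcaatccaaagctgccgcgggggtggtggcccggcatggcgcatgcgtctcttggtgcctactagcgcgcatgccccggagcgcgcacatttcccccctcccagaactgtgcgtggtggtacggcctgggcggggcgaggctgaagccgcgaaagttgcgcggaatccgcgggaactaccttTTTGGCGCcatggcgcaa
Pold1 (chr7:44548766-44549065 on the minus strand) and E2f2 (chr4:136172024-136172323 on the plus strand) fell.
Pold1: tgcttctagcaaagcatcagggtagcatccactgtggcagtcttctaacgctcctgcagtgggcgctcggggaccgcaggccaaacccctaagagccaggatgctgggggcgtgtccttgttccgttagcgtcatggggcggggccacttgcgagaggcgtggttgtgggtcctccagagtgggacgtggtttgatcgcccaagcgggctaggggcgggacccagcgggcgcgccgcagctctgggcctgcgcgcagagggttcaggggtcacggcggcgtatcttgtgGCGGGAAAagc
E2f2: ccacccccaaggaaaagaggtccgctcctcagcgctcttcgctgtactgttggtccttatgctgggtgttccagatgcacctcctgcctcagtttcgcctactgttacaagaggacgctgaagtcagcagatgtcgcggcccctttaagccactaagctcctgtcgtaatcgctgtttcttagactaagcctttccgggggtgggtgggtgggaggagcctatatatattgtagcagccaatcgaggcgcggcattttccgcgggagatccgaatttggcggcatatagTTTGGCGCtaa
In Rfc3 the words begin 10 bases before the start and at its first base, in Cdt1 at base 33 after it, in Pold1 at base 40 and in E2f2 at base 40.

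A RefSeq promoter was matched for 38 of the 46 members and for 8942 other tested genes, any promoter of a gene counting. An E2F word stood in the promoter of 15 of 38 members (39.5%), against 4.63% of the other genes. It stood in 3 of 9 members that rose in both genotypes at 6 h (Cdt1, Mcm6 and Rfc3) and in 4 of 11 that fell in both (E2f2, Mcm7, Pold1 and Uhrf1), so risers and fallers held it at like shares. CCAAT, searched on both strands, stood in 57.9% of members and 42.7% of other genes, and TTTGAA or TTTAAA, searched likewise, in 26.3% and 22.3%. GAAA, any 2 bases and GAAA again, a spacing found in interferon response elements, stood in 0 of 38 member promoters and in 4.15% of others. A match describes letters in a window, not a bound site. No promoter was matched for Pole, Ccne2, Mcm4, Gins4, Prim2, Gins2, Gins1 and Rfc2.

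Of the 6 subunits of the MCM helicase, only Mcm6 rose and Mcm7 fell in both genotypes at 6 h, and Mcm3 fell in KO cells. Mcm7 had 204, 209.7 and 201 normalized counts in WT mock and 143, 134 and 126 in WT PAMP RNA libraries at 6 h. In KO cells it had 221, 234 and 216 and 136, 152 and 135. All treated libraries lay below all mock libraries, and it fell by 0.61 in WT (SE 0.07, adjusted p = 1.37e-10, 1.53-fold lower) and by 0.66 in KO cells (adjusted p = 9.48e-12). Mcm6 rose by 0.28 in WT (0.00169 as its adjusted p) and 0.39 in KO cells, but had -0.09 and -0.09 with equal totals. The values of Mcm2, Mcm4 and Mcm5 at 6 h lay between -0.04 and 0.17, and none was called. Mcm3 had -0.25 and -0.30 at 3 h, called in both genotypes, and -0.12 (adjusted p = 0.103) and -0.31 (adjusted p = 3.12e-05) at 6 h. Of the exon bases of Mcm7, 7.25% are shared with Ap4m1 on the other strand, whose reads cannot be told apart from its own in unstranded libraries.

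Among the genes that license origins, Cdt1 rose while Cdc6 and Orc1 did not in WT cells. Cdt1 had 78.0, 91.4 and 89.8 normalized counts in WT mock and 157, 165 and 179.9 in WT PAMP RNA libraries at 6 h, and 80.4, 87.2 and 91.6 and 235, 203 and 226 in KO cells. Treated and mock libraries did not overlap in either genotype, with 1.93-fold more in WT (0.95, SE 0.09, adjusted p = 3.54e-12) and 2.54-fold more in KO cells (1.35, SE 0.09, adjusted p = 2.36e-17). Treated cells at 6 h (167 ± 11.7 in WT) remained below mock cells at 1 h (361 ± 46.6). Cdc6 had 20.1, 26.1 and 22.4 in WT mock and 21.2, 26.1 and 19.4 in WT treated libraries at 6 h, a difference of -0.04 (SE 0.15, adjusted p = 0.816). In KO cells it had 31.3, 25.9 and 28.2 against 22.6, 25.8 and 17.8. Cdc6 fell in KO cells by 0.36 (adjusted p = 0.0282), a call lost with edgeR (adjusted p = 0.155), with DESeq2, and without KO mock replicate 1 (-0.30, adjusted p = 0.115), KO mock replicate 3 (-0.37, adjusted p = 0.0501) or KO treated replicate 3 (-0.23, adjusted p = 0.212). Orc1, the largest origin recognition subunit, had 0.07 in WT and 0.49 (SE 0.19, adjusted p = 0.0195) in KO cells, and the KO call was lost with edgeR (adjusted p = 0.0892) and without KO mock replicate 1 (0.36, adjusted p = 0.121) or KO treated replicate 3 (0.41, adjusted p = 0.0855).

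Mcm10 was the member that rose most at 3 h. MCM10 joins the loaded helicase as it starts to unwind. At 3 h Mcm10 had 144, 132 and 128 normalized counts in WT mock and 331, 318 and 308 in WT PAMP RNA libraries, and 134, 129 and 153 and 352, 407 and 388 in KO cells. At 6 h it had 98.2, 113 and 115 and 239, 209.9 and 206 in WT cells, and 91.4, 104 and 91.6 and 273, 222 and 289 in KO cells. No treated library reached as low as a mock library at either time, and treated WT and KO cells at 3 h exceeded every 1 h library. The differences were 1.24 (SE 0.11, adjusted p = 1.18e-13) in WT and 1.45 (SE 0.11, adjusted p = 4.26e-16) in KO cells at 3 h, and 1.00 (adjusted p = 3.90e-11) and 1.43 (adjusted p = 3.41e-16) at 6 h.

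Among the 4 GINS subunits, which hold the active helicase together with CDC45, Gins1 and Gins2 rose in both genotypes at 6 h and Gins3 in WT cells. Gins2 had 97.3, 111 and 108 in WT mock and 189, 192 and 215 in WT treated libraries, and 129, 119 and 111 and 218, 249 and 224 in KO cells. Groups did not overlap, at 0.91 (SE 0.10, adjusted p = 3.09e-11) in WT and 0.94 (SE 0.10, adjusted p = 8.21e-12) in KO cells. Of the exon bases of Gins2, 67.3% are shared with Gse1 on the other strand, whose own mean went from 881 ± 103 to 759 ± 109.8 in WT and from 1075 ± 14.8 to 809 ± 37.2 in KO cells at 6 h. Gins1 rose by 0.64 and 0.90. Gins3 had 0.39 in WT (adjusted p = 0.00543) and 0.19 in KO cells (adjusted p = 0.170), but 0.02 and -0.29 with equal totals. Cdc45 was not called, with 20.1, 18.6 and 26.9 in WT mock and 27.1, 17.8 and 16.8 in WT treated libraries (-0.10, adjusted p = 0.650). Its KO libraries had 29.6, 25.0 and 26.4 and 29.3, 25.8 and 19.0, which overlap (-0.14, adjusted p = 0.495). Gins4 was not called either.

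No polymerase or primase gene rose at 6 h, and Pold1, the catalytic subunit of polymerase delta, fell in both genotypes. Pold1 had 124, 114 and 110.4 in WT mock and 56.6, 61.7 and 63.4 in WT PAMP RNA libraries at 6 h, and 128, 121 and 119 and 30.6, 63.0 and 72.4 in KO cells. The treated KO libraries spread widely, but none reached a mock library. Pold1 fell 1.90-fold in WT (-0.93, SE 0.16, adjusted p = 1.42e-06) and 2.33-fold in KO cells (-1.22, SE 0.16, adjusted p = 2.55e-09). The fall was already called at 3 h, at -0.62 in WT and -0.50 in KO cells, the latter lost without KO mock replicate 2 (-0.41, adjusted p = 0.0525). Pole, the catalytic subunit of polymerase epsilon on the leading strand, had 64.6, 51.3 and 54.8 in WT mock and 53.1, 59.3 and 54.4 in WT treated libraries, which overlap (-0.03, SE 0.12, adjusted p = 0.853). In KO cells it had 87.2, 71.7 and 57.3 and 42.6, 41.5 and 39.2, with every treated library below every mock library, and it fell by 0.78 (SE 0.12, adjusted p = 3.16e-07). Pole2 fell in KO cells by 1.67 (SE 0.53, adjusted p = 0.00491), from 11.8, 12.1 and 12.3 to 3.99, 0 and 13.1. That call rested on the library at 0 and was lost without it, KO treated replicate 2 (-0.64, adjusted p = 0.238), and with edgeR (adjusted p = 0.118). Prim2, the large primase subunit, fell in WT cells by 0.35 (adjusted p = 0.0362), a call lost with edgeR (adjusted p = 0.0571), with DESeq2 and without WT mock replicate 2 or 3 or WT treated replicate 2 (-0.27, adjusted p = 0.145) or 3. Pola1, Pola2 and Prim1 lay between -0.33 and 0.14 and were not called at 6 h.

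The clamp Pcna and 3 of the 5 clamp loader subunits rose in both genotypes, while Rfc1 fell in both. Pcna had 1367, 1504 and 1467 in WT mock and 2373, 2125 and 2306 in WT PAMP RNA libraries at 6 h, and 1420.0, 1314 and 1395 and 2909, 2747 and 2693 in KO cells. Mock cells lost Pcna between 3 h and 6 h and treated WT cells did not, since they held 2334 ± 36.7 at 3 h and 2268 ± 128 at 6 h. The rise was 1.57-fold in WT (0.65, SE 0.05, adjusted p = 1.80e-15) and 2.02-fold in KO cells (1.02, SE 0.05, adjusted p = 9.89e-23). At 3 h it was not called (0.07 and 0.03), and there it was negative with equal totals and after quantile normalization.

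Rfc3, a small clamp loader subunit, rose the most of all members. It had 32.7, 30.8 and 42.2 in WT mock and 105, 87.7 and 94.5 in WT treated libraries at 6 h, and 32.1, 35.4 and 30.0 and 134, 124 and 93.8 in KO cells. The lowest treated library was above the highest mock library by more than the spread of either group, at 2.69-fold in WT (1.43, SE 0.16, adjusted p = 7.95e-11) and 3.51-fold in KO cells (1.81, SE 0.16, adjusted p = 4.56e-14). It had risen at 3 h as well, by 1.10 and 0.64. Rfc5 rose by 0.64 and 0.54. Rfc2 had 249, 249 and 239.6 in WT mock and 279.5, 304 and 252 in WT treated libraries, a small rise of 0.18 (SE 0.08, adjusted p = 0.0386) that turned to -0.20 with equal totals and was lost without any WT mock library or without WT treated replicate 1 or 2 (0.11, adjusted p = 0.235 without the latter). In KO cells it had 208, 238 and 246 and 371, 365 and 342, groups well apart, and rose by 0.64 (SE 0.08, adjusted p = 2.53e-10). Rfc1 had 290.2, 294 and 280.0 against 223, 229 and 237 in WT cells and 349, 324 and 313 against 238, 253 and 232 in KO cells. It fell by 0.33 (SE 0.07, adjusted p = 7.57e-05) and 0.44 (adjusted p = 2.79e-07). Rfc4 was not called (-0.39, adjusted p = 0.0776, and -0.24, adjusted p = 0.272). Genes on the other strand share 15.1% of the exon bases of Rfc2 (Lat2, mean count 582) and 10.7% of those of Rfc5 (Wsb2, mean count 1582). Reads of the shared bases cannot be told apart in unstranded libraries, and the changes of Lat2 and Wsb2 are not given here.

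**Figure D3:**
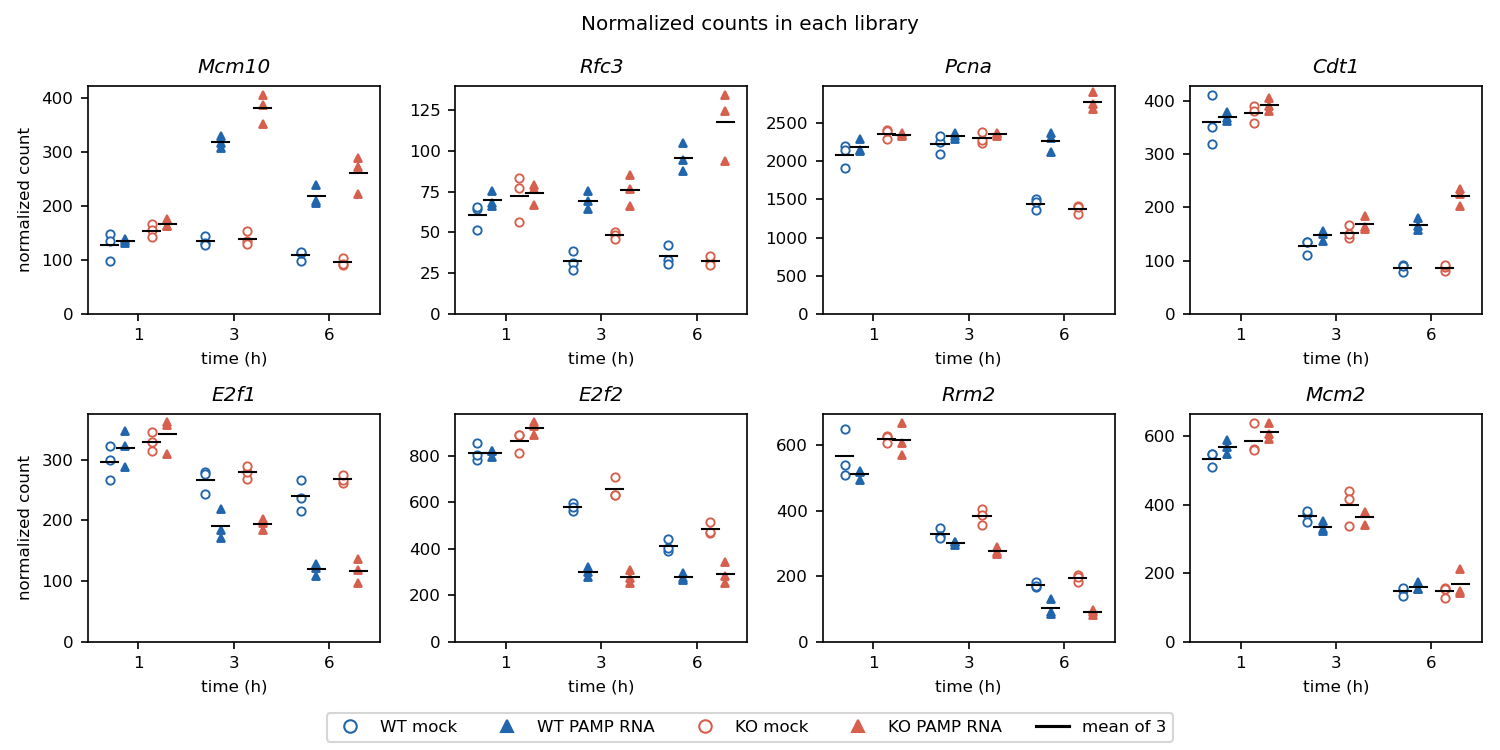
Normalized counts of 8 members in each library. The x axis is time in h, the y axis starts at 0, open circles are mock and filled triangles PAMP RNA libraries of WT (blue) and KO (red) cells, and black bars are means of 3. Mcm10 is highest in treated cells at 3 h, E2f2 is lower in treated than in mock cells at 3 h and 6 h, and Pcna in treated WT cells at 6 h keeps its 3 h level while mock cells fall.

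Of the RPA and lagging-strand genes, Rpa1 fell in both genotypes, while Fen1 rose on the authors' scale in both. Rpa2 was called lower in WT cells only and Lig1 in KO cells only. By limma, the KO response minus the WT response was called for neither (0.26, adjusted p = 0.432, and -0.38, adjusted p = 0.160). Rpa2, the middle RPA subunit, had 73.8, 95.1 and 78.1 in WT mock and 49.5, 65.2 and 57.0 in WT PAMP RNA libraries at 6 h, groups that did not overlap, and fell by 0.52 (SE 0.13, adjusted p = 0.000684). Its KO libraries had 76.2, 95.0 and 78.4 and 69.2, 77.3 and 61.8, which overlap (-0.26, adjusted p = 0.0788). Rpa1 fell by 0.20 and 0.34, and Rpa3 was not called. Lig1, the ligase that seals Okazaki fragments, had 73.8, 77.4 and 89.8 against 75.5, 62.8 and 73.8 in WT cells, overlapping at -0.18 (adjusted p = 0.191). Its KO libraries had 77.8, 81.2 and 79.3 against 55.9, 45.8 and 59.4, all lower after PAMP RNA, and Lig1 fell by 0.56 (SE 0.12, adjusted p = 6.74e-05). Fen1, the flap endonuclease, rose by 0.22 and 0.26, but had -0.15 and -0.23 with equal totals. Of its exon bases 78.8% are shared with Gm10143 on the other strand.

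Of the 5 nucleotide supply genes, Rrm1, Rrm2 and Dut fell and Tyms rose in both genotypes. Rrm2, the S phase subunit of ribonucleotide reductase, had 165, 183 and 170.5 in WT mock and 83.7, 91.3 and 129.5 in WT PAMP RNA libraries at 6 h, and 205, 182 and 198 and 95.8, 91.6 and 81.9 in KO cells. No groups overlapped. Rrm2 fell 1.73-fold in WT (-0.79, SE 0.10, adjusted p = 9.06e-10) and 2.16-fold in KO cells (-1.11, SE 0.10, adjusted p = 2.63e-14), on top of its fall in mock cells. Its partner Rrm1 fell by 0.19 and 0.26. Dut, which breaks down dUTP, had 67.1, 66.2 and 70.0 against 61.3, 47.4 and 41.4 in WT cells and 68.5, 63.0 and 58.2 against 49.2, 57.3 and 52.2 in KO cells. It fell by 0.45 in WT (SE 0.12, adjusted p = 0.000783) and by 0.25 in KO cells (adjusted p = 0.0486), a KO call lost with edgeR (adjusted p = 0.141), with TMM scaling and without KO mock replicate 1 (-0.19, adjusted p = 0.182) or 2 or KO treated replicate 1 or 3. Tk1, thymidine kinase, was called lower in KO cells only, at -0.32 beside -0.08 in WT. The difference between its responses was not called (-0.24, limma adjusted p = 0.215). Tyms, thymidylate synthase, rose by 0.27 and 0.63, with -0.10 in WT cells under equal totals, and the WT call was lost without WT treated replicate 2 (0.16, adjusted p = 0.110).

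Ung, the steepest faller in mock cells, had 10.9, 13.1 and 23.3 in WT mock and 17.7, 9.49 and 15.5 in WT PAMP RNA libraries at 6 h, which overlap (-0.11, SE 0.25, adjusted p = 0.718). KO libraries held 16.1, 23.3 and 18.5 and 16.0, 7.16 and 4.75, the highest treated library just under the lowest mock library, and Ung fell by 1.12 (SE 0.25, adjusted p = 0.000137) from few counts. Of the genes that rebuild chromatin behind the fork, Chaf1a of the CAF-1 histone chaperone fell by 0.36 in WT and 0.19 in KO cells, the latter (adjusted p = 0.0462) lost with edgeR (adjusted p = 0.0831) and without KO mock replicate 1 or 2 or KO treated replicate 1 (-0.12, adjusted p = 0.239) or 3. Of its exon bases 52.5% are shared with Ubxn6, which held 297 ± 22.3 in WT mock and 311 ± 37.1 in WT treated cells. Chaf1b, the other large CAF-1 subunit, had 58.7, 68.0 and 59.2 against 42.5, 46.2 and 54.4 in WT cells and fell by 0.38 (SE 0.13, adjusted p = 0.00923), a call lost with DESeq2 (adjusted p = 0.0679) and without WT mock replicate 2 (-0.31, adjusted p = 0.0583) or WT treated replicate 1 (-0.30, adjusted p = 0.0640). KO libraries had 58.4, 54.4 and 45.8 against 47.9, 57.3 and 65.3, overlapping, at 0.10 (adjusted p = 0.499). Uhrf1, which guides DNA methylation after the fork, fell by 0.22 and 0.36, and its WT call was lost without WT mock replicate 3 (-0.17, adjusted p = 0.0524).

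The regulators of entry into S phase parted, with both E2F factors lower and both E cyclins higher. E2f1 had 216, 238 and 267 in WT mock and 108, 128 and 122 in WT PAMP RNA libraries at 6 h, and 261, 267 and 276 and 136, 95.9 and 119 in KO cells. Treated libraries were all below mock libraries, at 2.00-fold lower in WT (SE 0.10 on the log2 scale, adjusted p = 5.05e-12) and 2.31-fold lower in KO cells (-1.21, SE 0.10, adjusted p = 1.03e-14). At 3 h E2f1 had fallen by 0.48 and 0.52. E2f2 fell more at 3 h than at 6 h. It had 596, 562 and 578 against 301, 279 and 319 in WT and 630.3, 709 and 629 against 250.5, 273 and 307 in KO cells at 3 h, or -0.95 (SE 0.08, adjusted p = 1.30e-14) and -1.24 (SE 0.08, adjusted p = 6.44e-19). At 6 h it had 390.1, 441 and 401 against 263, 274 and 296 in WT and 468, 516 and 469.7 against 251, 282 and 341 in KO cells, or -0.56 and -0.74. Treated cells held like counts at both times, while mock cells fell toward them, and the difference between the responses at 3 h and 6 h was not tested.

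Ccne1, cyclin E1, had 60.4, 55.9 and 47.6 against 67.2, 65.2 and 77.7 in WT cells and 38.1, 44.0 and 54.6 against 101, 84.5 and 77.2 in KO cells at 6 h. Treated libraries were higher without overlap in both. It rose by 0.93 (SE 0.12, adjusted p = 2.85e-09) in KO cells and by 0.36 (SE 0.12, adjusted p = 0.00917) in WT cells, where it had -0.01 with equal totals and lost its call with DESeq2 (adjusted p = 0.0565) and without WT mock replicate 3 (0.26, adjusted p = 0.0837) or WT treated replicate 3 (0.28, adjusted p = 0.0656). Ccne2, cyclin E2, rose by 0.40 and 0.49, and had fallen in KO cells at 3 h (-0.41). Of its exon bases 17.4% are shared with Ints8.

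The response of KO cells was compared with that of WT cells to ask whether LGP2 altered it, with the reservation above that Dhx58 counts in KO mock cells go against the label. No member was called at 1 h, where 0% of all genes were lower and 0.118% higher, or at 3 h, where 0.557% were lower and 2.58% higher. At an unadjusted p under 0.05, limma had 1 member lower and 0 higher at 1 h and 6 lower and 0 higher at 3 h, and neither edgeR nor DESeq2 called a member at these times, DESeq2 giving an adjusted p for 24 and 28 of the 46. At 6 h, 5 members were higher in the KO response and 1 lower, against 6.67% and 3.81% of all genes, and with equal totals 2 were higher and 6 lower, against 3.21% and 10.5%. Pole had -0.75 (SE 0.17, adjusted p = 0.00296), from -0.03 in WT and -0.78 in KO cells. Rfc2 had 0.46 (SE 0.11, adjusted p = 0.00245), and Pcna 0.37 (SE 0.07, adjusted p = 0.000427), both as larger rises in KO cells. The calls of Pole and Rfc2 were kept under every other scaling, filter and tool and without any single library, and that of Pcna under all but quantile normalization (0.21, adjusted p = 0.0591). Ccne1 (0.58, SE 0.17, adjusted p = 0.0204), Cdt1 (0.40, SE 0.13, adjusted p = 0.0447) and Tyms (0.36, SE 0.12, adjusted p = 0.0439) lost theirs with edgeR (adjusted p = 0.0645, 0.0957 and 0.0556), with DESeq2, with equal totals and without 4, 8 and 8 of the 12 libraries in turn. By edgeR and by DESeq2, 2 members were higher in the KO response, against 7.09% and 7.93% of all genes. Ung had -1.01 (SE 0.36, adjusted p = 0.0632) and passed without WT mock replicate 3 (-1.31, adjusted p = 0.0136), WT treated replicate 2 (-1.25, adjusted p = 0.0224) or KO treated replicate 1 (-1.44, adjusted p = 0.00264).

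In mock cells, replication genes were slightly higher in libraries labelled KO, Cdc45, Pole and Cdc6 the most among those called. Averaged over the 3 times, 12 members were higher in KO than in WT mock cells and 0 lower, where 10.5% of all genes were higher and 11.7% lower, and the members' median was 0.09 beside 0.01 for all genes. At an unadjusted p under 0.05 limma had 1 member lower, and edgeR and DESeq2 called none lower. Pole had 119, 136 and 148 in WT and 173, 176 and 168 in KO mock libraries at 1 h, and 64.6, 51.3 and 54.8 and 87.2, 71.7 and 57.3 at 6 h. KO libraries were all higher at 1 h and overlapped WT libraries at 6 h, and the averaged difference was 0.26 (SE 0.07, adjusted p = 0.00523). Rfc1 had 327, 315 and 313 against 413, 374 and 427 at 1 h, without overlap, and 0.24 (SE 0.04, adjusted p = 9.06e-06). Cdc45 had 45.7, 54.9 and 44.2 against 70.3, 67.1 and 65.9 at 1 h and 0.29 (SE 0.11, adjusted p = 0.0418), and Cdc6 had 120.1, 106 and 112 against 127, 134 and 121 and 0.26 (SE 0.09, adjusted p = 0.0266).

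The higher level of Mcm7 (0.22), Pole, Rfc1, Tk1 (0.18), Uhrf1 (0.16) and E2f2 (0.17) in KO mock cells was called under every other scaling, filter and tool and without any single library, while Cdc6, Cdc45, Pola1, Rfc5, Rrm1 and Rrm2 lost their calls without 1 or more single libraries (Cdc45 to 0.26, adjusted p = 0.0945 without WT mock replicate 2 at 6 h). With each time tested alone, a choice made after seeing the data, 5 members were higher at 1 h, 3 at 3 h and 1 at 6 h, against 4.34%, 3.68% and 5% of all genes. Other genes moved with this difference. All 10 tested dendritic cell markers were lower in KO mock cells (median -0.37, summing to 33540 to 37020 against 51350 to 53340 at 1 h), 3 of 5 tested progenitor markers were lower, and 22 of 25 mitosis genes were higher (median 0.18). Their part in the members' difference was not tested, and the culture of KO and WT bone marrow cannot be told apart from the genotype.

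Other genes of DNA replication and the cell cycle were counted by lists to place the members. In mock cells from 1 h to 6 h the members' neighbours fell too, with 29 of 35 further fork and origin genes, 23 of 29 nucleotide supply genes, 20 of 27 checkpoint and fork repair genes and 24 of 32 G1/S control genes lower. In that comparison 36.8% of all tested genes fell and 35% rose. Of 25 mitosis genes 10 fell and 8 rose, with a median of 0.04. After PAMP RNA at 6 h 23 of 25 mitosis genes fell in WT cells (median -0.90) and 24 in KO cells, the others not called, while the fork and origin list split, with 11 lower and 9 higher of 35 in WT and 16 and 10 in KO cells. Nucleotide supply had 16 lower and 7 higher of 29 in WT cells and 12 and 7 in KO cells, G1/S control 12 and 12 of 32 in WT and 12 and 14 in KO, and the checkpoint list 10 and 5 of 27 in WT and 11 and 5 in KO. Of all genes, 33.3% were lower and 32.1% higher in WT cells after PAMP RNA at 6 h, and 36.5% and 35.1% in KO cells.

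Genes of these lists with large changes in WT cells at 6 h name what moved. Timeless, a fork protection protein, rose by 2.46 (SE 0.11) and Mcmbp, an MCM-binding protein, by 1.11, while Clspn, the checkpoint mediator claspin, fell by 1.16 and the nuclease Dna2 by 0.97. Among G1/S control genes the D cyclins Ccnd1 and Ccnd2 rose by 4.14 and 3.89, the pocket protein Rbl1 by 1.54 and the kinase inhibitor Cdkn1a (p21) by 1.45. Of nucleotide genes, the salvage kinase Dck rose by 2.31, Samhd1, which destroys dNTPs, by 2.04 and Mthfd2, of mitochondrial folate metabolism, by 1.45. Of the checkpoint and repair genes, Chek2 fell by 1.88, Palb2 by 1.05 and Msh6 by 0.89. Mitosis genes that fell included Cenpf (-2.07), Cdc20 (-1.53), Kif20a (-1.25) and Bub1b (-1.23). In KO cells each of these 18 genes was called in the same direction, from -2.52 for Cenpf to 4.64 for Ccnd2. Relatives of the named G1/S genes moved otherwise in WT cells at 6 h. The pocket proteins Rbl2 (-1.19) and Rb1 (-0.42) fell, as did the kinase inhibitors Cdkn1b (-0.67) and Cdkn2c (-0.78). Cdkn2a, Cdkn2b and Cdkn2d were not called.

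**Figure D4:**
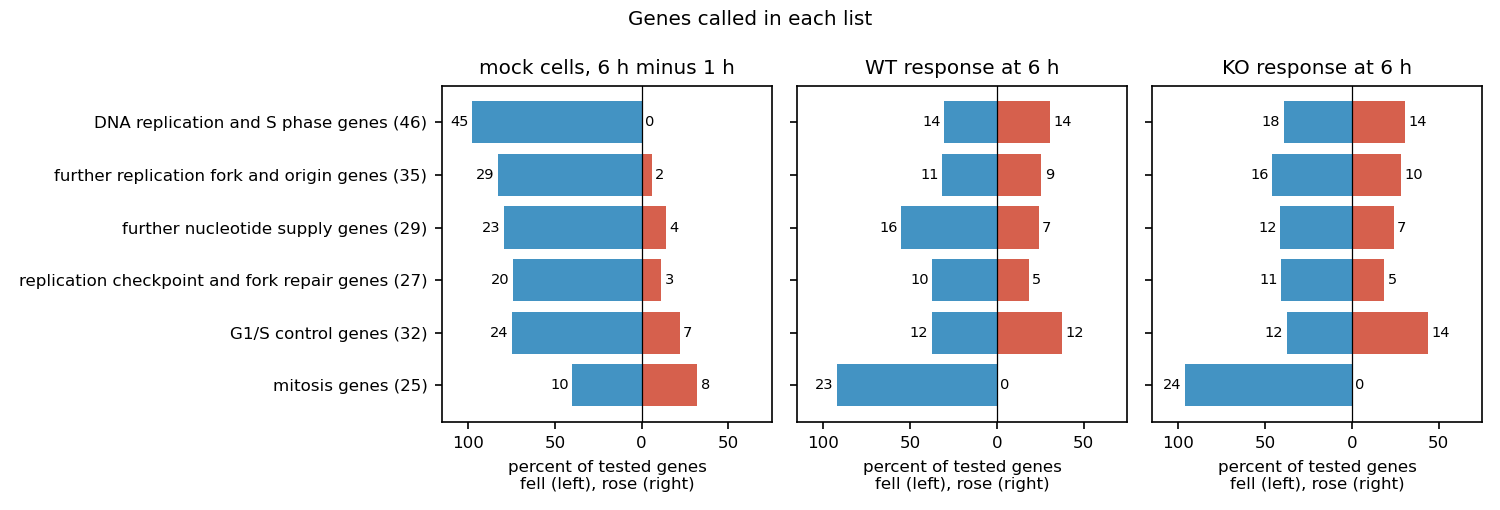
Percent of tested genes in each list that fell (blue, left) or rose (red, right), with their numbers, in mock cells from 1 h to 6 h and after PAMP RNA at 6 h in WT and KO cells. The number tested is in brackets after each list's name, and on equal library totals the responses of the replication genes shift to 29 lower and 6 higher in WT and 32 and 7 in KO cells. In mock cells 45 of 46 replication genes fell while mitosis genes split. After PAMP RNA 23 of 25 mitosis genes fell in WT cells. Replication genes split there at shares close to those of all genes (33.3% lower and 32.1% higher).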

How the data were processed

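RNA of 36 libraries was read as unstranded 100-base single reads, and the submitters' processing notes name TopHat, Cufflinks, DESeq2 and the builds GRCm38 and mm10, with no versions or roles. The deposited values are a signal, gene read counts that the authors' table names as normalized with DESeq. From the values, each library was divided by 1 factor, since they are whole multiples of what 1 read is worth in each library (100% of values within 0.01 read), which gave back 4740909 to 14255730 reads per library. No column was left without a sample.

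Genes with a mean of at least 10 (11853) were fitted as log2(value + 1) by limma 3.58.1 in R 4.3.3, with 12 group means, an intensity trend and 24 residual degrees of freedom. P-values were adjusted over all genes (Benjamini-Hochberg) and called under 0.05. edgeR 4.0.16 and DESeq2 1.42.0 on the recovered reads, other pseudocounts (0.5 and 5), filters (none, or a mean of at least 50), scalings (quantile, equal totals, TMM), a replicate block, fits of the compared groups alone and leaving out each library were alternatives. The fit was also run on data simulated with the same spread setting for every gene, which does not measure its error rate in these libraries. Triplicates were plated per condition, so p-values measure only the spread between these libraries.

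The members and lists were chosen with earlier results of these data known. Members given in full are up to 8 with the largest called fall and up to 5 with the largest called rise at 6 h in each genotype (mean of at least 50), up to 4 with the largest called genotype difference, and 1 or more of each role. For each other list up to 4 genes are named, by the size of the WT change at 6 h. Genes of 2 lists that this rule would name are not reported here.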

Additional observations from a re-analysis of the deposited data

Results flagged for a closer look

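6 members responded differently in WT and KO cells at 6 h by the test of the difference itself (limma, adjusted over all genes), with 3 libraries in each of the 4 groups. Of all genes, 3.81% were lower and 6.67% higher in the KO response. Pole was lower in the KO response by -0.75 on the log2 scale. The response was larger in KO cells by 0.58 for Ccne1, 0.46 for Rfc2, 0.40 for Cdt1, 0.37 for Pcna and 0.36 for Tyms. The calls of Ccne1, Cdt1 and Tyms were lost with edgeR, DESeq2 and equal totals and without some single libraries. That of Pcna was lost with quantile normalization. KO here means the libraries labelled so, in which Dhx58 reads of mock cells were above those of WT mock cells.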

How the results depend on the processing

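All 45 and 40 falls in mock cells were called under every other scaling, filter and tool in which the gene was tested, and without any single library. With equal totals, 22 members fell in WT and 28 in KO cells at 3 h, 29 fell and 6 rose in WT and 32 fell and 7 rose in KO cells at 6 h, and 6 were lower and 2 higher in the KO response at 6 h. After quantile normalization 6 rose in KO cells at 3 h. Members higher in the KO response at 6 h numbered 3 with no filter and 2 each with quantile normalization or the compared groups alone. They numbered 2 each with edgeR and DESeq2, against 7.09% and 7.93% of all genes. Without single libraries 2 to 5 were higher and 1 to 2 lower. In mock cells 0 to 1 members were lower in KO cells without single libraries. With 1, 3 and 6 h tested alone 5, 3 and 1 were higher, against 4.34%, 3.68% and 5% of all genes. Shares of all genes with equal totals are given above, and those under the other settings are not given, so these counts do not set the members apart.

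Signs turned for 25 values. With equal totals, WT values at 3 h were -0.11 for Pcna and -0.18 for Rfc2, and at 6 h -0.25 for Mcm2, -0.36 for Mcm4, -0.36 for Mcm5, -0.090 for Mcm6, -0.34 for Pola1, -0.20 for Rfc2, -0.15 for Fen1, -0.10 for Tyms and -0.012 for Ccne1. KO values at 3 h were -0.22 for Pcna, -0.21 for Rfc2 and -0.25 for Rrm1, and at 6 h -0.31 for Mcm2, -0.39 for Mcm5, -0.091 for Mcm6, -0.29 for Gins3, -0.42 for Gins4, -0.34 for Pola2, -0.23 for Fen1 and -0.38 for Chaf1b. After quantile normalization at 3 h, Pcna had -0.19 in WT and -0.31 in KO cells and Rrm1 -0.18 in KO cells. Equal totals divide by sums that rose with PAMP RNA, which lowers every gene by construction, and the cause of the other changes was not tested.

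Replicate numbers did not pair the libraries, since same-numbered libraries deviated together with a correlation of -0.114 to 0.183 (median 0.002) and 12 of 36 were closest to their own number. A replicate block changed no call, with 14 members lower and 14 higher in WT and 18 and 14 in KO cells at 6 h. Low counts limit Pole2, Cdc6 and Orc1, whose KO calls at 6 h were lost without single libraries.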
